A study of Mus musculus with 6 samples.

Results

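The non-clustered protocadherins are cadherin-family adhesion proteins, each made from a gene of its own and not from the clustered protocadherin arrays. The 9 genes described here, Pcdh1, Pcdh7, Pcdh8, Pcdh9, Pcdh10, Pcdh17, Pcdh18, Pcdh19 and Pcdh20, were taken by gene name from a table of 55414 mouse genes, and each name matched 1 gene. The transcripts had been sequenced from neurons of male mice, taken in the medial mammillary nucleus at the back of the hypothalamus. Fluorescent cells were drawn into glass electrodes from papain-treated slices, and libraries were made with a SMARTer kit that copies mRNA from small inputs. By genotype there were 2 groups among the 6 libraries: 3 of PV-positive neurons (replicates 6, 7 and 8), which carry the calcium-binding protein parvalbumin, and 3 of Drd2-positive neurons (replicates 1, 2 and 3), which carry the D2 dopamine receptor. No source used here gives the driver and reporter alleles that made the cells fluorescent, the age of the mice, or how many cells or mice stand behind a library. The libraries of a group are described as biological replicates.

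Non-clustered protocadherins span the membrane, bind other cadherin-type proteins on neighbouring cells weakly, and signal through their cytoplasmic tails to actin and phosphatases. Most are placed in a delta-1 class (Pcdh1, Pcdh7, Pcdh9 and Pcdh11x) or a delta-2 class (Pcdh8, Pcdh10, Pcdh17, Pcdh18 and Pcdh19), which differ in the number of extracellular cadherin repeats and in conserved motifs of the tail; Pcdh20 is put in neither here. In the brain, combinations of these genes mark nuclei, layers and axon tracts, and several are needed for axons to grow together or for synapses to be kept or lost.

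Depth ran from 23.8 to 33.7 in units of 1e6 fragments, and the libraries held 8610 to 12398 genes at 1 FPKM (fragments per kilobase of exon per 1e6 fragments) or more, the fewest in PV replicate 7. The labels were checked against the named genes: Pvalb was at 349, 482 and 563 FPKM in PV replicates 6, 7 and 8, against 10.4, 22.5 and 99.5 FPKM in Drd2 replicates 1, 2 and 3. Drd2 was at 0.0132 FPKM in PV replicate 6 and listed at 0 in PV replicates 7 and 8, against 42.7, 55.0 and 7.74 FPKM in the Drd2 libraries, and within that group replicate 3 was the highest for Pvalb and the lowest for Drd2. The 6 neuronal markers were each above 1 FPKM in every library and summed to 1359 to 1617 FPKM in PV and 1115 to 1348 FPKM in Drd2. Of them, Snap25 alone was higher in every PV library (751 to 1109 FPKM, against 202 to 503 FPKM in Drd2). Tubb3 was lower in every PV library (61.7 to 311 FPKM, against 428 to 563 FPKM), and the others overlapped. Of 6 mammillary markers, Foxb1, Lhx1, Lhx5 and Nkx2-1 were above 1 FPKM in every library, whereas Nkx2-4 was listed at 0 in the 3 PV libraries and was at 1.48 to 9.66 FPKM in Drd2. Foxb1 was lower in every PV library, at 4.19 to 24.0 FPKM, than in every Drd2 library, at 26.4 to 76.4 FPKM. Lhx1, Lhx5 and Nkx2-1 overlapped between the groups. Sim2 was listed at 0 in the 3 PV libraries and in Drd2 replicate 3, while Drd2 replicates 1 and 2 had 2.00 and 0.111 FPKM of it.

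Promoter sequences are shown for 4 members: Pcdh20, which had the highest PV values relative to Drd2, Pcdh8 and Pcdh19, whose PV values lay below the Drd2 values, and Pcdh17, whose groups overlapped. Each line gives the 250 bases before the RefSeq start (GRCm38.p6, minus strand except Pcdh17 on the plus strand), 5′ to 3′ in the direction of transcription, at chr14:88471397-88471646, chr14:79771313-79771562, chrX:133688994-133689243 and chr14:84443313-84443562 in that order. Capitals mark matches on either strand to the TATA box, spelled TATAAA, to the CCAAT box, spelled CCAAT, to the GC box, spelled GGGCGG, and to the E-box, spelled CANNTG; no 2 of these matches overlap.
Pcdh20: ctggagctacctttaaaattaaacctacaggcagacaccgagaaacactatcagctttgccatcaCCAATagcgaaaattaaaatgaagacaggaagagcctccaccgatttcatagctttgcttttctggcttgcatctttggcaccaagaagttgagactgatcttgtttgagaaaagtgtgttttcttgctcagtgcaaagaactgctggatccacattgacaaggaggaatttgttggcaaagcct
Pcdh8: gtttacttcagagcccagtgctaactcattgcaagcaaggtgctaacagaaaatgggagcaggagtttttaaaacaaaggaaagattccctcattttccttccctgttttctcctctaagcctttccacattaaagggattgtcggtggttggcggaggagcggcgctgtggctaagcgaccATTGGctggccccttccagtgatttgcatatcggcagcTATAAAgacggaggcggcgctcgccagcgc
Pcdh19: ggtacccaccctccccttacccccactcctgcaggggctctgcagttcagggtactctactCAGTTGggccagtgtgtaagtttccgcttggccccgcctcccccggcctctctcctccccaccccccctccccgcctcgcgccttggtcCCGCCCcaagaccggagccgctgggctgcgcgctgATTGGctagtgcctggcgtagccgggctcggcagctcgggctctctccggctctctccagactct
Pcdh17: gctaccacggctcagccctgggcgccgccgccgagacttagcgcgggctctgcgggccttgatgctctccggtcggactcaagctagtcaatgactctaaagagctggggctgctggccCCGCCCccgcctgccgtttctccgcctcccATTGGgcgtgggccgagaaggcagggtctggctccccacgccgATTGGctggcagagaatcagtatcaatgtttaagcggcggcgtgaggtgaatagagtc

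The table of RefSeq promoters held 8 of the 9 members, and Pcdh1 is named without a sequence. Pcdh20 had a GC content of 42.4% and a ratio of observed to expected CpG of 0.267 in this window, the lowest of the 8 on both counts, where the others ran from 51.2% to 69.2% and from 0.419 to 0.883. The medians over 27025 promoters of the same length were 52.0% and 0.378. A TATA box was found in Pcdh8, 25 to 30 bases before the start, and in no other member window, against 13% of all promoters. CCAAT was found in 7 of the 8 windows, all but that of Pcdh7, against 34.5% of all promoters. Just downstream of the CCAAT match the letters ran on in common: ATTGGCTGG, which contains that match as read on the opposite strand (ATTGG), stood 60 to 68 bases before the start in Pcdh8, 50 to 58 in Pcdh17 and 24 to 32 in Pcdh18, against 1.01% of all promoters holding it on either strand. These 9 letters were chosen after the sequences were seen. The GC box was found in Pcdh10, Pcdh17, Pcdh18 and Pcdh19 (32.9% of all promoters), and the E-box in Pcdh19 (66.0%). The cyclic AMP response element, spelled TGACGTCA and held by 1.62% of all promoters, was found in none of the 8 windows, and nor was the AP-1 site, spelled TGACTCA and held by 4.43%; this says only that these letters are not there. For Pcdh9, where RefSeq lists 2 starts, the first was used. The Pcdh7 window, chr5:57717831-57718080, runs past the gene start of 57717967 given below, so part of it lies inside the gene as placed there. The Pcdh18 window, chr3:49757317-49757566 on the minus strand, also runs past its gene bound of 49757325, by a few bases.

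The question put to the members was how their transcripts were set between PV and Drd2 neurons. The 9 genes summed to 106 ± 5.41 FPKM in PV and 80.9 ± 3.71 FPKM in Drd2 (SD, n = 3 each), with the 3 PV sums above the 3 Drd2 sums. The FPKM of all genes also summed higher in PV, to 368000 to 447800, against 351100 to 362300 in Drd2. Relative to these totals the member sums of the groups overlapped, so their separation depends on the scaling. Pcdh9, Pcdh20, Pcdh17, Pcdh7 and Pcdh19 had the highest means in PV, in that order, and each overlapped the next in its values over the 3 libraries, while the lowest Pcdh19 value lay above every PV value of Pcdh10, the next below. In Drd2 the order was Pcdh19, Pcdh9, Pcdh17, Pcdh7, Pcdh1, Pcdh8, Pcdh10, Pcdh18 and Pcdh20, and every neighbour in it overlapped the next. In bulk libraries, fewer cells that use a gene and less RNA per cell cannot be told apart.

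The members were proposed with FPKM values of these libraries known, so the values below are a description, and nothing is supported by them. Log2 folds are PV minus Drd2 on the log2(FPKM + 1) scale, which understates the change of low genes, and come with standard errors from limma, a linear model fitted over the 11478 genes that reached 1 FPKM in 3 or more libraries. Of the 9 members 8 were tested, and Pcdh18 was under that filter. None of the 8 passed a Benjamini-Hochberg adjusted p of 0.05 in limma, where 0.261% of all tested genes did (0.0436% higher in PV and 0.218% lower), with limma adjusted p from 0.0600 for Pcdh20 to 0.956 for Pcdh10. With limma voom on reads recovered from the FPKM, 0 members passed, where 0.192% of the 11431 genes in that fit did. At an unadjusted limma p under 0.05 there were 4 (Pcdh20, Pcdh1, Pcdh8 and Pcdh9), against 12.8% of all tested genes. The groups did not overlap for 5 of the 8, against 19.0% of all tested genes: 2 were higher in PV (5.83% of all tested genes) and 3 lower (13.1%). The absolute log2 fold was at least 2 for 3 of the 8 (Pcdh20, Pcdh1 and Pcdh8), against 7.09% of all tested genes. These 3 would have passed the filter through the libraries of their high group alone, so the counts follow in part from the filter. The median log2 fold of the 8 was 0.07, beside -0.28 for all tested genes.

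**Figure D1:**
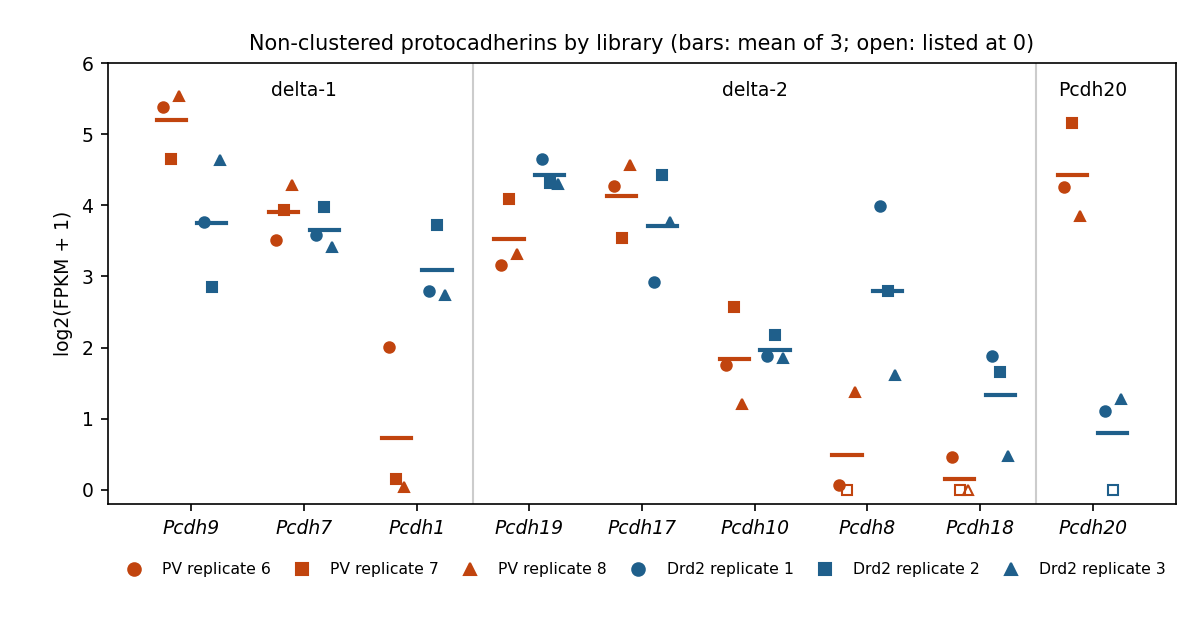
Level of each of the 9 non-clustered protocadherins in each library, as log2(FPKM + 1) on the y axis, with PV libraries in orange-red left of Drd2 libraries in blue, a bar at the mean of 3 and open symbols for genes listed at 0. Pcdh20 and Pcdh9 sit higher in the 3 PV libraries than in the 3 Drd2 libraries, Pcdh1, Pcdh19 and Pcdh8 sit lower, and Pcdh7, Pcdh17 and Pcdh10 overlap.

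Pcdh20 stood furthest apart. This protocadherin, which in the mouse cortex helps to place layer-4 neurons (mm10 chromosome 14, 88464743 to 88471396, minus strand), was at 18.1, 34.6 and 13.4 FPKM in PV replicates 6, 7 and 8. In Drd2 replicates 1 and 3 it was at 1.16 and 1.43 FPKM, and in Drd2 replicate 2 it was listed at 0, where 3 reads would be 0.0182 FPKM. In reads, this was 2958, 5255 and 2090 in PV, against 215, 0 and 187 in Drd2. Every PV library lay far above every Drd2 library. The log2 fold was 3.62 ± 0.68 (SE), with a limma adjusted p of 0.0600. The gene passed with array weights (fold 3.58, limma adjusted p = 0.0393, where 0.915% of all tested genes passed) and with quantile normalization (3.88, 0.0448, where 0.592% did). Over the 18 alternatives the limma adjusted p of Pcdh20 lay between 0.0393 and 0.315, and its fold ran from 2.14 with a pseudocount of 5 FPKM to 6.92 with voom.

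Markers of GABAergic neurons stood in the same order over the PV libraries as Pcdh20. The blood, oligodendrocyte and ependymal sums and the mitochondrial share had that order too, so it is not particular to GABAergic markers. The sum of the 3 markers Gad1, Gad2 and Slc32a1 was 5.99, 17.4 and 2.31 FPKM in PV replicates 6, 7 and 8, against 0.859 FPKM in Drd2 replicate 2 and 0 in Drd2 replicates 1 and 3, where all 3 were listed at 0. At 1 FPKM or more were 2, 3 and 2 of them in PV and none in Drd2, and Slc32a1 was listed at 0 in PV replicate 8. Their part in the Pcdh20 values was not tested. In PV replicate 8, with the smallest sum, Pcdh20 was at 13.4 FPKM.

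Pcdh9, a delta-1 adhesion protein of neuronal contacts (chromosome 14, 93013410 to 93890679, minus strand), was the most abundant member in PV by its mean. It was at 40.8, 24.2 and 45.5 FPKM in PV replicates 6, 7 and 8, against 12.6, 6.18 and 23.9 FPKM in Drd2 replicates 1, 2 and 3. The groups did not overlap, but PV replicate 7 and Drd2 replicate 3 nearly met. The means were 36.8 ± 11.2 FPKM in PV and 14.2 ± 8.95 FPKM in Drd2 (SD, n = 3 each), and the log2 fold was 1.44 ± 0.56 (SE; limma adjusted p = 0.329). Over the alternatives the fold ran from 0.99 without Drd2 replicate 2 to 2.16 with those 2 nearest libraries both left out, which by itself widens the gap, and the limma adjusted p ran from 0.191 to 0.659. Markers of oligodendrocytes, 9 in all, summed to 68.3 to 320 FPKM in PV and 74.2 to 1379 FPKM in Drd2, the highest in Drd2 replicate 2, where Pcdh9 was lowest. Of these markers, Mog was listed at 0 in PV replicate 7, Opalin in PV replicates 7 and 8 and in Drd2 replicate 3, and Cldn11 and Ermn in Drd2 replicate 3. Their part in the Pcdh9 values was not tested.

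Pcdh1, a delta-1 member linked in human to airway hyperreactivity (chromosome 18, 38185914 to 38212053, minus strand), was at 3.00, 0.111 and 0.0241 FPKM in PV replicates 6, 7 and 8, against 5.97, 12.3 and 5.67 FPKM in Drd2 replicates 1, 2 and 3. The reads were 788, 27 and 6 in PV and 1772, 3237 and 1190 in Drd2. The PV values lay below the Drd2 values without overlap, and PV replicate 6 held nearly all the Pcdh1 reads of its group. The log2 fold was -2.36 ± 0.76 (SE; limma adjusted p = 0.228); over the alternatives the fold ran from -5.16 with voom to -1.10 with a pseudocount of 5 FPKM, and the adjusted p from 0.102 to 0.649.

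Pcdh7, known in Xenopus as NF-protocadherin, where it has a part in the outgrowth of retinal axons (chromosome 5, 57717967 to 58133230, plus strand), was among the steadiest members. It was at 10.4, 14.3 and 18.5 FPKM in PV replicates 6, 7 and 8, against 10.99, 14.7 and 9.61 FPKM in Drd2 replicates 1, 2 and 3. The groups overlapped, the means were 14.4 ± 4.07 FPKM in PV and 11.8 ± 2.63 FPKM in Drd2 (SD, n = 3 each), and the log2 fold was 0.26 ± 0.50 (SE). Exons of 4932441J04Rik on the other strand cover 21.1% of the Pcdh7 exon length. No source used here says whether the counting used strand, so reads there cannot be told apart; 4932441J04Rik itself was at 0.164, 0.582 and 1.53 FPKM in PV and at 0.00628, 0 and 0.267 FPKM in Drd2.

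Among delta-2 members, Pcdh19, the X-linked gene behind a human female-limited epilepsy and a partner of N-cadherin (chromosome X, 133582860 to 133688987, minus strand), led in Drd2 by its mean. It was at 7.96, 16.0 and 8.91 FPKM in PV replicates 6, 7 and 8, against 24.1, 19.0 and 18.7 FPKM in Drd2 replicates 1, 2 and 3. The groups did not overlap, and PV replicate 7 came nearest to the Drd2 libraries. The means were 10.9 ± 4.38 FPKM in PV and 20.6 ± 3.05 FPKM in Drd2 (SD, n = 3 each), and the log2 fold was -0.90 ± 0.49 (SE; limma adjusted p = 0.486). Because Pcdh20 and Pcdh19 lay on opposite sides, their FPKM ratio within a library, which no scaling of the library changes, was 2.27, 2.16 and 1.51 in PV and 0.0482, 0 and 0.0765 in Drd2; this ratio was chosen after the values were seen.

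Pcdh8, also called arcadlin, is induced by activity in rat hippocampal neurons and draws N-cadherin from the synapse through the kinases Taok2 and p38. The gene (chromosome 14, 79766775 to 79771312, minus strand) was at 0.0517 and 1.60 FPKM in PV replicates 6 and 8 and listed at 0 in PV replicate 7, where 3 reads would be 0.0239 FPKM. Drd2 replicates 1, 2 and 3 had 14.96, 5.91 and 2.07 FPKM of it. PV replicate 8, with 206 reads, came close to Drd2 replicate 3, with 224, while the other PV libraries had 7 and 0. The log2 fold was -2.32 ± 0.79 (SE; limma adjusted p = 0.254); over the alternatives the fold ran from -6.49 with voom to -1.07 with a pseudocount of 5 FPKM, and the adjusted p from 0.227 to 0.649. Exons of Gm9748, antisense to Pcdh8, cover 9.61% of its exon length, and Gm9748 was listed at 0 in every library.

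A list of 17 immediate-early genes, which neuronal activity and tissue handling both induce, was set beside Pcdh8. Their summed level was 309.5, 42.3 and 299.5 FPKM in PV replicates 6, 7 and 8, against 866, 1734 and 683 FPKM in Drd2 replicates 1, 2 and 3. All 12 tested genes of this list had a log2 fold below 0, where 4402 of all 11478 tested genes had one above 0. The median of the 12 was -2.07, beside -0.28 for all tested genes. Of the 12, Atf3 passed the filter through the Drd2 libraries alone, and Nr4a1 and Npas4 would have done so. The count and the median therefore follow in part from the filter, and the other genes of the 17 were under it. None of the 12 passed the threshold (smallest limma adjusted p 0.154, for Egr1), where 0.261% of all tested genes did. Pcdh8 and this sum were both lowest in PV replicate 7 over all libraries and, within Drd2, both lowest in replicate 3. Within Drd2, Pcdh8 was highest in replicate 1 and the sum in replicate 2, and within PV, Pcdh8 was highest in replicate 8 and the sum in replicate 6. The part of the immediate-early genes in the Pcdh8 values was not tested. Of the 5 Pcdh8 endocytosis partners (Cdh2, Taok2, Mapk14, Map2k3 and Map2k6), each was tested, all overlapped between the groups and none passed, where 19.0% of all tested genes did not overlap and 0.261% passed.

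Pcdh17, which in mice holds amygdala axons together and acts at corticobasal synapses (chromosome 14, 84443563 to 84539002, plus strand), was at 18.3, 10.6 and 22.7 FPKM in PV replicates 6, 7 and 8, against 6.56, 20.5 and 12.6 FPKM in Drd2 replicates 1, 2 and 3. The groups overlapped almost fully, with means of 17.2 ± 6.12 FPKM in PV and 13.2 ± 6.99 FPKM in Drd2 (SD, n = 3 each) and a log2 fold of 0.42 ± 0.57 (SE). Pcdh10, or OL-protocadherin, which guides striatal and thalamocortical axons in mice (chromosome 3, 45378398 to 45435623, plus strand), was low in both groups. It was at 2.38, 4.94 and 1.30 FPKM in PV and at 2.67, 3.52 and 2.60 FPKM in Drd2, with the highest and the lowest value both in PV. Its log2 fold was -0.12 ± 0.66 (SE), and the sign turned with median-of-ratios scaling (0.04), quantile normalization (0.20), rescaling over nuclear protein-coding genes (0.01) and without PV replicate 8 (0.20).

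Pcdh18, whose protein binds the reelin-pathway adaptor Dab1 in mice (chromosome 3, 49743296 to 49757325, minus strand), was the scarcest delta-2 member. It was at 0.381 FPKM in PV replicate 6 and listed at 0 in PV replicates 7 and 8, where 3 reads would be 0.0202 and 0.0197 FPKM, against 2.70, 2.15 and 0.383 FPKM in Drd2 replicates 1, 2 and 3. PV replicate 6 and Drd2 replicate 3 were level, at 61 and 49 reads, and the other Drd2 libraries had 488 and 347. It reached 1 FPKM in 2 libraries, where the filter asked for 3. With no filter its log2 fold was -1.18 ± 0.58 (SE; limma adjusted p = 0.649).

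**Figure D2:**
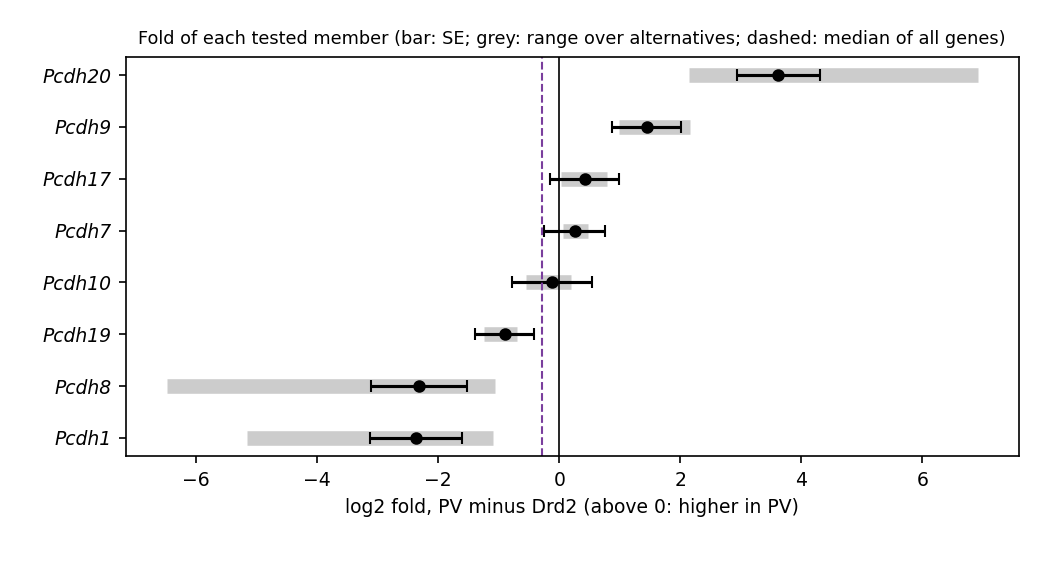
Log2 fold, PV minus Drd2, of the 8 tested members on the x axis, with points at the fitted value, bars for its standard error, grey bands for the range over the alternatives, and a dashed line at the median of all tested genes (-0.28). Pcdh20 (3.62), Pcdh9 (1.44), Pcdh17 (0.42) and Pcdh7 (0.26) lie right of 0 throughout, the bands of Pcdh17 and Pcdh7 reaching down to 0.03 and 0.07. Pcdh19 (-0.90), Pcdh8 (-2.32) and Pcdh1 (-2.36) lie left of 0, and the band of Pcdh10 crosses it.

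By class, the share of delta-2 transcripts in the members' summed FPKM was 28.7%, 30.1% and 30.8% in PV replicates 6, 7 and 8, against 62.4%, 60.6% and 47.2% in Drd2 replicates 1, 2 and 3. The PV libraries lay close together and below the Drd2 libraries, of which replicate 3 was the lowest. The delta-1 share overlapped, at 53.5%, 36.9% and 57.2% in PV and 36.2%, 39.4% and 50.9% in Drd2. Pcdh20 alone made up 17.8%, 33.0% and 12% of the sum in PV, against 1.42%, 0% and 1.86% in Drd2. The first member in each library was Pcdh9 in PV replicates 6 and 8, Pcdh20 in PV replicate 7, Pcdh19 in Drd2 replicate 1, Pcdh17 in Drd2 replicate 2 and Pcdh9 in Drd2 replicate 3. These shares add up to 100, so a high Pcdh20 or Pcdh9 lowers the others.

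**Figure D3:**
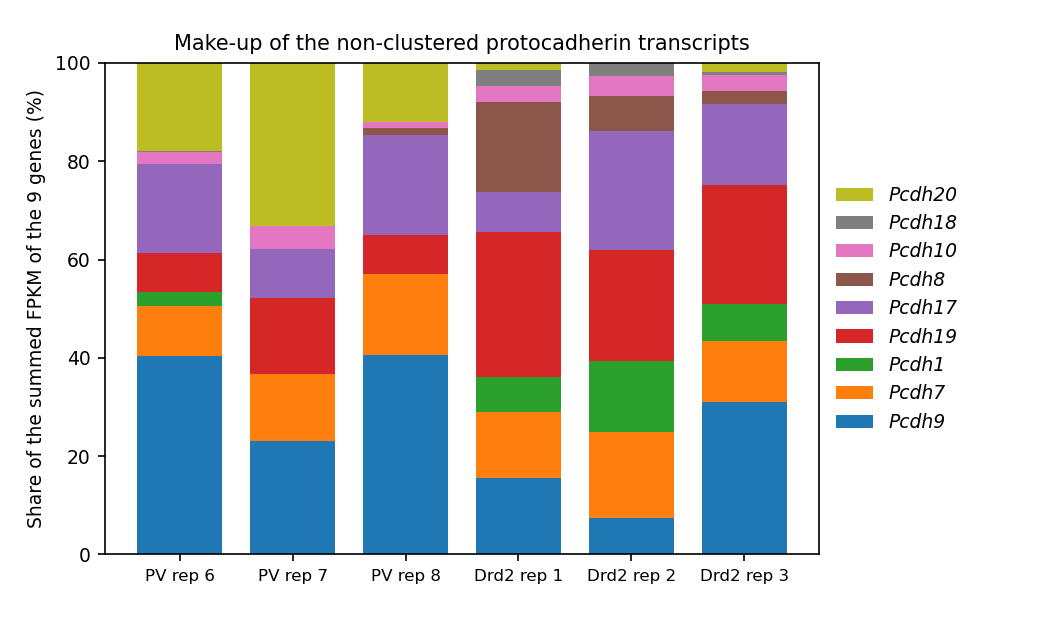
Share of each member in the summed FPKM of the 9 genes (y axis, percent) in each library, PV libraries on the left and Drd2 libraries on the right. Pcdh20 at the top of each bar fills 12% to 33.0% in PV and 0% to 1.86% in Drd2, and Pcdh19 fills 7.85% to 15.3% in PV and 22.5% to 29.5% in Drd2.

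The members also differed in how steady they were among libraries. Over all 6 libraries the log2(FPKM + 1) value of Pcdh7 spanned 0.88, that of Pcdh10 1.37, of Pcdh19 1.48, of Pcdh17 1.65 and of Pcdh9 2.70, against 3.70 for Pcdh1, 3.997 for Pcdh8 and 5.15 for Pcdh20. At 1 FPKM or more in all 6 libraries were 5 members (Pcdh7, Pcdh9, Pcdh10, Pcdh17 and Pcdh19), and 3 had a library at 0 (Pcdh8, Pcdh18 and Pcdh20).

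Library-wide facts ran beside these values. Microglial markers, 10 in all and each above 1 FPKM in the 3 PV libraries, summed to 354 to 1402 FPKM in PV and 23.9 to 2615 FPKM in Drd2, the highest in Drd2 replicate 3; 5 of them were listed at 0 in Drd2 replicate 1. Haemoglobin and Alas2, the 5 blood markers, summed to 743 to 3204 FPKM in PV and 0 to 12.1 FPKM in Drd2, with all 5 at 0 in Drd2 replicate 3. Transcripts of mitochondrial DNA made up 9.62% to 31.3% of the summed FPKM in PV and 3.74% to 5.20% in Drd2. Endothelial markers stayed between 0 and 4.002 FPKM in sum, with Cldn5 at 0 in every library, and mural and fibroblast markers between 0.0191 and 6.39 FPKM, with Lum at 0 in every library. The 8 astrocyte markers summed to 517 to 563 FPKM in PV and 143 to 503 FPKM in Drd2, mostly Aldoc, which neurons can also express, and the 4 ependymal markers to 2.26 to 3.73 FPKM in PV and 0.0226 to 8.05 FPKM in Drd2. The part of any of these in the protocadherin values was not tested.

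**Figure D4:**
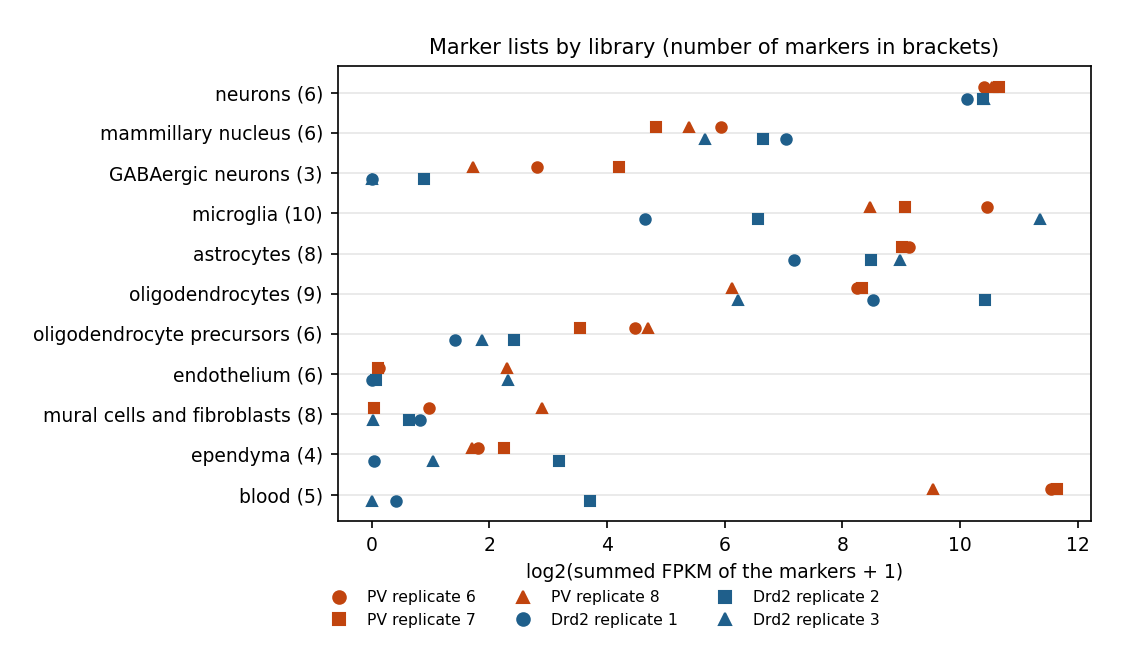
Summed FPKM of 11 marker lists in each library, as log2(sum + 1) on the x axis, with PV libraries in orange-red above Drd2 libraries in blue and the number of markers in brackets. The sums of the blood, GABAergic, oligodendrocyte precursor, astrocyte and neuron lists are higher in the 3 PV libraries than in the 3 Drd2 libraries, the mammillary sums overlap, and endothelial and mural markers are near 0 in most libraries. The neuron sums nearly meet, and of that list Snap25 alone is higher in every PV library, while Tubb3 is lower.

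The remaining non-clustered relatives were read from a list of 3. Pcdh11x, the X-linked delta-1 member, was at 7.70, 5.72 and 1.80 FPKM in PV, against 0, 1.36 and 4.97 FPKM in Drd2 replicates 1, 2 and 3, with overlap. Pcdh15, a tip-link protein of the inner ear that oligodendrocyte precursors also carry, was at 9.16, 5.56 and 8.14 FPKM in PV, against 5.34, 2.63 and 3.62 FPKM in Drd2. Its lowest PV value lay just above its highest Drd2 value, and its log2 fold was 0.84 ± 0.61 (SE; limma adjusted p = 0.599). The 6 precursor markers summed to 10.7 to 24.8 FPKM in PV and 1.67 to 4.35 FPKM in Drd2, with Gpr17 at 0 in all but PV replicate 6. Of the 6, Lhfpl3 alone was higher in every PV library than in every Drd2 library, and single genes carried much of the rest: C1ql1 was at 14.2 FPKM in PV replicate 6 and Neu4 at 16.7 FPKM in PV replicate 8. The defining marker Pdgfra was listed at 0 in PV replicates 7 and 8 and in Drd2 replicates 1 and 2, and Cspg4 was below 0.05 FPKM in every library. Their part in the Pcdh15 values was not tested. Pcdh12, an endothelial protocadherin, was listed at 0 in all but PV replicate 8, where it was at 1.31 FPKM.

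The pathway around the members was read from lists with the same fit, in which 0.261% of all tested genes passed and the groups of 19.0% did not overlap (5.83% higher in PV and 13.1% lower). Of 10 tested clustered protocadherins among 58 in the table, none passed and all overlapped between the groups, and their median log2 fold was -0.31, beside -0.28 for all tested genes. Of 11 tested cadherins, none passed, and 5 did not overlap, 4 of them lower in PV (Cdh4 and Cdh22 had the smallest p) and 1 higher (Cdh10). Cdh4, R-cadherin, was at 0.00996 FPKM in PV replicate 7 and listed at 0 in the other PV libraries, against 2.26, 2.70 and 2.42 FPKM in Drd2. It passed the filter through the Drd2 libraries alone, and Cdh22 and Cdh10 would have passed it through their high group alone. The cadherin counts therefore follow in part from the filter. Of 9 tested genes of the WAVE complex, through which delta-2 tails reach actin, none passed. The groups did not overlap for 2 of the 9, a share near the 19.0% of all tested genes, so this is no result about the complex. Of these, Wasf1 was at 12.2, 27.0 and 13.3 FPKM in PV, against 6.88, 8.37 and 7.00 FPKM in Drd2, and Cyfip2 at 48.3, 56.7 and 56.4 FPKM, against 22.2, 39.3 and 39.2 FPKM. Of the 3 catalytic subunits of the phosphatase PP1, which delta-1 tails bind, none passed, and the groups did not overlap for 1, Ppp1ca, which was lower in PV (13.1% of all tested genes). None of 7 tested large cadherins, 5 catenins and 6 genes of Pcdh10 turnover passed either.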

How the data were processed

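RNA was sequenced from 3 PV and 3 Drd2 libraries. The deposited table holds FPKM made by the authors, 1 column a library; per the submitters' processing notes, the aligner was STAR and the builds named are hg38, GRCh38 and mm10. Gene quantifier, strand setting and annotation: not given in the sources used here. Exon lengths and positions came from GENCODE M21 (94.1% of 55414 identifiers found). Multiplied by exon length, FPKM gave whole reads: 98.0% to 98.8% of values of up to 20 reads lay within 0.01 read of a whole number, and all 54 member values within 0.001. Depth so recovered was 23.8 to 33.7 in units of 1e6 fragments. A floor of 3 reads per library covers counting error only, since PCR copies are not independent molecules.

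The groups were set against each other with limma 3.58.1 under R 4.3.3, 2-sided, on log2(FPKM + 1) with an intensity trend, over the 11478 genes reaching 1 FPKM in 3 or more libraries, at a Benjamini-Hochberg adjusted p of 0.05. The step was tested on simulated data, with 200 genes in the level range of the tested members changed by a known log2 fold. It recovered 0% of those changed by 1 or 2, 18% of those changed by 3 and 64% of those changed by 4. Of 44 calls 3 were false, and 10 sets without a change gave 0 calls. A gene or list that did not pass is therefore not shown to be unchanged. The p-values measure the spread between these samples. Genes named were the members, Pvalb and Drd2, and genes from 2 further sources. These were up to 4 members a list with the smallest p, and per tested member the 2 genes of most similar pattern. Not all genes of these 2 sources are named, and the choice among them, like that of other genes, was made after their values were seen. The members and lists were chosen with earlier results of these data known. Alternatives were other pseudocounts, filters, scalings, variance models, voom on the recovered reads and leaving out each library. Omitting both PV replicate 7 and Drd2 replicate 3, and rescaling over nuclear protein-coding genes, were added after seeing the data. Promoters came from RefSeq (GRCm38.p6).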

Additional observations from a re-analysis of the deposited data

How the results depend on the processing

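Of 142 member folds under 18 alternatives, 136 kept their direction and their side of the threshold. Pcdh20 passed only with array weights (limma adjusted p = 0.0393) and quantile normalization (0.0448), so the count of members past the threshold was 1 under each and 0 otherwise. The log2 fold of Pcdh10, -0.12 on all libraries, turned to 0.0377 with median-of-ratios scaling, 0.196 with quantile normalization, 0.00736 after rescaling over nuclear protein-coding genes and 0.196 without PV replicate 8; leaving out 1 library gave -0.489 to 0.196. The cause was not tested. The number of all genes past the threshold, 30 by limma, was 4 with a pseudocount of 0.1 FPKM, 68 with one of 5 FPKM, 0 with no filter (1509 at an unadjusted p under 0.05; voom, with the filter, gave 22), 68 with quantile normalization, 46 without the intensity trend, 105 with array weights, 18 with PV replicate 7 and Drd2 replicate 3 both left out and 14 after rescaling over nuclear protein-coding genes. Leaving out 1 library gave 1 to 56 genes: 56 without PV replicate 6, and 2, 3 and 1 without Drd2 replicates 1, 2 and 3. Over all tested genes the median log2 fold ran from -0.50 after rescaling to TPM to 0.05 with quantile normalization. With at least 5 FPKM in 3 libraries Pcdh8 and Pcdh10 were not tested. No paired analysis was possible because the groups share no replicate number. In PV, Pcdh8, Pcdh1 and Pcdh18 rest on 0 to 788 reads a library.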

Other observations

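For each tested member, the genes with the most similar pattern were found by the root mean square difference of log2(FPKM + 1), centred per gene, over the 6 libraries among 9553 genes. With 6 points and this many genes close matches are common, and the likeness is a description. Nearest to Pcdh20 were Rbm45, an RNA-binding protein, at a difference of 0.554, and Neurod6, a neuronal transcription factor, at 0.607, where the median over all genes searched was 2.21. The difference is not scaled to a gene's range, which was widest for Pcdh20, so its size cannot be compared between members. Neurod6 was at 4.92, 24.6 and 3.72 FPKM in PV replicates 6, 7 and 8 and listed at 0 in the 3 Drd2 libraries. Pcdh8 was most like Gal3st1, the sulfotransferase that makes the myelin lipid sulfatide, at 0.278: Gal3st1 was at 0.0164, 0 and 0.726 FPKM in PV, against 12.9, 6.50 and 1.05 FPKM in Drd2 replicates 1, 2 and 3. Pcdh17 was most like Zranb1 (0.0568), Pcdh19 like Mamld1 (0.0625) and Pcdh10 like Cmpk1 (0.0910).

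The gene most like Pcdh1 was Tmem191c, at 0.204. The second, at 0.211, was Gnpda1, a glucosamine-6-phosphate deaminase 115482 bases from Pcdh1 on chromosome 18. Gnpda1 was at 3.27, 0 and 0.0164 FPKM in PV, against 7.62, 14.8 and 8.35 FPKM in Drd2, and its fold was -2.73 ± 0.78 on the log2 scale (SE, limma adjusted p = 0.185). The 3 tested genes between Pcdh1 and Gnpda1, Rnf14, Dele1 and 1700086O06Rik, had log2 folds of -0.31, -0.11 and -0.50, and Ndfip1 beyond Gnpda1 had -0.23; the groups overlapped for all 4. These neighbours were looked up after the likeness was seen. No tested gene lay within 200000 bases of Pcdh17, Pcdh18, Pcdh19 or Pcdh20.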
